A study of Mus musculus with 3 samples.

Results

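The sites described here are single-base positions of mouse chromosome 1 at which the reference and the alternate base were both read in 3 haploid embryonic stem cell (ESC) lines. Of 11544 single-base positions in the deposited exonic variant table, 1038 lie on chromosome 1. A site was taken when its depth was 10 reads or more and its alternate share was at least 0.05 and below 0.8 in each of the 3 libraries, where the depth is the number of reads at the site and the alternate share is the alternate reads over reference plus alternate reads. This left 709 positions. Another 143 of these were left out because the table lists them under *Heatr7b1*, an olfactory receptor gene (*Olfr*) or a vomeronasal receptor gene (*Vmn*), which gave 566 mixed sites in 41 listed genes. The sites were thus selected on depth and alternate share in these same libraries, and both are given below as a description. The lowest share of a mixed site in any library was 5.13% and the highest was 79.7%. Just outside the limits, the nearest sites had 4.81% in their lowest library and 80.8% in their highest.

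Whole-genome sequencing was done on genomic DNA from androgenetic haploid ESCs, which carry a paternal genome only, of strain C57BL/6 grown in 2i/Lif, with 1 library per line. The lines were O48 (WT, passage 40), ΔDSM-O48-1 with mutant *Dmpk*, *Six5* and *Mbnl1* (passage 60), and ΔDSMD-O48-2, in which *Dmwd* was mutated in addition (passage 70). All 3 lines share the deletions of the *H19* and *IG* differentially methylated regions that O48 carries, each mutant line is 1 clone, and ΔDSMD-O48-2 was made from ΔDSM-O48-1. The study used these libraries to look for off-target changes after CRISPR-Cas9 editing.

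A haploid cell has 1 copy of each chromosome, so a base that occurs once in its genome is read as a single allele. Both alleles can be read where a stretch of sequence is present in several copies that differ at some bases, or where reads from a similar sequence elsewhere are aligned to the same place. Mouse chromosome 1 is known for a long repeat cluster of *Sp100*-related sequence beside *Sp110* and *Sp140*, genes of interferon-inducible nuclear body proteins, and for the *Ugt1a* locus, where several first exons are joined to the same last exons to make different UDP-glucuronosyltransferases.

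For 5 genes of 3 places on the chromosome, 61 bases of GRCm38.p6 are shown around a mixed site that was annotated as nonsynonymous. They show how the sites look in the reference and in a similar sequence elsewhere. The site is the one with the highest depth in its least covered library among those in RefSeq coding exons, and for *Rrs1*, *Sp110* and *Sp140* among those with a copy that carries the alternate base and aligned to the site's surroundings without a gap. The chromosome 1 windows are of the plus strand. A change is written as the reference base, the position on chromosome 1 and the alternate base. The site is in capitals, and in a copy every base that differs from the chromosome 1 line is in capitals too. *Rrs1* C9545876T lies in chr1:9545846-9545906 and its copy in chr5:25956949-25957009, where RefSeq has the pseudogene *Gm21168*. *Sp110* C85591619T lies in chr1:85591589-85591649 and its copy on an unlocalized contig of chromosome 1. *Sp140* T85621656G lies in chr1:85621626-85621686 and its copy in chr1:85089548-85089608 on the minus strand, inside *A530032D15Rik*. *Ugt1a1* C88212746T lies in chr1:88212716-88212776 and *Hjurp* C88265472T in chr1:88265442-88265502, and neither had a copy in the reference.
Rrs1: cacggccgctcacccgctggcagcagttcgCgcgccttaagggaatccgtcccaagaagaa
Rrs1 copy: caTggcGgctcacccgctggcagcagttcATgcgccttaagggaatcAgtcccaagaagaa
Sp110: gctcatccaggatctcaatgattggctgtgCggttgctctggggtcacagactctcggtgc
Sp110 copy: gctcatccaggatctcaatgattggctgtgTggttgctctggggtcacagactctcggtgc
Sp140: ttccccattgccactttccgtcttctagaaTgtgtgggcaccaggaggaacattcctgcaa
Sp140 copy: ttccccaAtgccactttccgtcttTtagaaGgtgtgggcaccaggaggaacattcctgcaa
Ugt1a1: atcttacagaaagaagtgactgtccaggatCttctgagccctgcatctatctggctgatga
Hjurp: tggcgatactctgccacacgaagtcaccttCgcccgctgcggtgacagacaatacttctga

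The *Sp110* copy differed from the chromosome 1 window at 1 base, which was the site itself and carried the alternate base. The *Sp140* copy differed at 3 bases and the *Rrs1* copy at 5, the site included. The *Rrs1* window also holds the mixed sites C9545848A, C9545860A, G9545875C and G9545894T, and the copy shown lacks the alternate base at each of them. At the *Sp110* site (A163T) 162 alternate and 225 reference reads were counted in O48, 151 and 220 in ΔDSM-O48-1, and 156 and 225 in ΔDSMD-O48-2. At the *Sp140* site (C203G) the alternate base led in every library, with 303 alternate and 144 reference reads in O48, 262 and 160 in ΔDSM-O48-1, and 287 and 115 in ΔDSMD-O48-2. The *Ugt1a1* site (L249F) had 27 alternate and 176 reference reads in O48, 23 and 167 in ΔDSM-O48-1, and 26 and 179 in ΔDSMD-O48-2. The *Hjurp* site had 58 and 120, 65 and 107, and 57 and 111 in the same order. Its annotated change, E435K, is numbered in the entry id8260, so it is not given here as a change of the *Hjurp* protein. The *Rrs1* site (A118V) was covered far less, with 22 alternate and 19 reference reads in O48, 22 and 15 in ΔDSM-O48-1, and 29 and 17 in ΔDSMD-O48-2.

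The mixed sites were packed into few places. Linked at a distance of 10 kb, 519 of the 566 sites fell into 11 clusters of 5 or more sites, which was 91.7% (95% exact interval 89.1% to 93.8%), and 14 sites had no other within that distance. The median distance between neighbouring sites was 35 bp, and 27 neighbouring pairs were adjacent bases. Joined over 200 kb, a distance chosen after seeing the data, 531 sites fell into 4 blocks of 20 or more sites. The Sp110–Sp140 block held 275 sites between 84963696 and 85644724, or 48.6% of the total. The Ugt1a–Hjurp block held 183 sites between 88211967 and 88307868, or 32.3%. *Rrs1* held 53 sites between 9545577 and 9546588, all in its coding exon, and the 3′ UTR of *Ppp2r5a*, a regulatory subunit of protein phosphatase 2A, held 20 between 191352020 and 191352909, which are also listed under *Tmem206*. The other 35 sites were spread over 20 genes and are called isolated sites here.

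The Sp110–Sp140 block is an array of related genes and gene models. *Sp110* and *Sp140*, which overlap in the annotation, held 98 sites in 4 entries of the table, of which 39 were listed under *Sp110* and 35 under *Sp140* with the highest impact. The entries id7467 and id7469, with 11 and 13 sites, lie within *Sp110* or *Sp140* in RefSeq, and all 13 sites of id7469 are outside the exons of *Sp140* there. The related genes *C130026I21Rik* with 53 sites and *A530032D15Rik* with 48 came next, followed by id7386 with 21 sites, which lies in *A530040E14Rik*, and *Gm15433* and *Gm2666* with 15 each. *Gm7592* held 9 sites, *Gm2427* held 6, id7390, which lies in *Gm2619*, held 6, and *Gm7609* held 4. In the Ugt1a–Hjurp block, *Hjurp*, the chaperone that places the histone variant CENP-A at centromeres, held 108 sites, 74 of them also listed under id8260. The last exons shared by the *Ugt1a* genes held 53 sites, the first exon of *Ugt1a1* held 20, and 2 sites lay at *Trpm8*, the cold-sensing ion channel. Another 52 positions met the rule on depth and share but are listed under both *Hjurp* and *Heatr7b1* and were left out.

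From a list of gene families of chromosome 1, counted by listed gene name, 8 of 13 genes of the Sp100 family array held mixed sites. This count leaves out *A530040E14Rik* and *Gm2619*, also on the list, in which id7386 with 21 sites and id7390 with 6 lie. Of 9 *Ugt1a* genes 8 held mixed sites, 7 of them through the shared last exons alone. The other, *Ugt1a8*, has no entry under its name, but RefSeq places it too at shared exons that hold mixed sites. The 21 interferon-inducible p200 genes, 6 complement factor H genes, 12 clade B serpins, 6 gamma crystallins, 7 Fc receptors, 6 flavin monooxygenases, 4 aldehyde oxidases and 3 alkaline phosphatases had no position in the table. Of 9 SLAM genes, 1 was in the table, with fixed sites only. The table lists variant positions alone, so a gene that is missing from it has no measured value here.

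Depth was compared with fixed sites, which are the 41 positions of chromosome 1 with a share of 0.8 or more in all 3 libraries. The median depth of mixed and fixed sites was 160 and 158 reads in O48, 156 and 157 in ΔDSM-O48-1, and 156.5 and 161 in ΔDSMD-O48-2, which gave ratios of 1.01, 0.994 and 0.972. These ratios hid a division among the fixed sites, which was noticed after seeing the data. Inside the blocks, 23 fixed sites had median depths of 189, 194 and 189 reads in the 3 libraries, and the 18 fixed sites outside the blocks had 29, 31.5 and 24. The fixed sites inside the blocks were not pure: the median share in O48 was 86.8%, against 100% outside. Across the whole table, 3759 fixed sites had median depths of 31, 32 and 31 reads. Against the 18 fixed sites outside the blocks, the mixed sites were 5.52, 4.95 and 6.52 times as deep, and against the fixed sites of the whole table they were 5.16, 4.88 and 5.05 times as deep. Depth is therefore given below relative to the whole-table fixed sites, averaged over the 3 libraries.

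**Figure D1:**
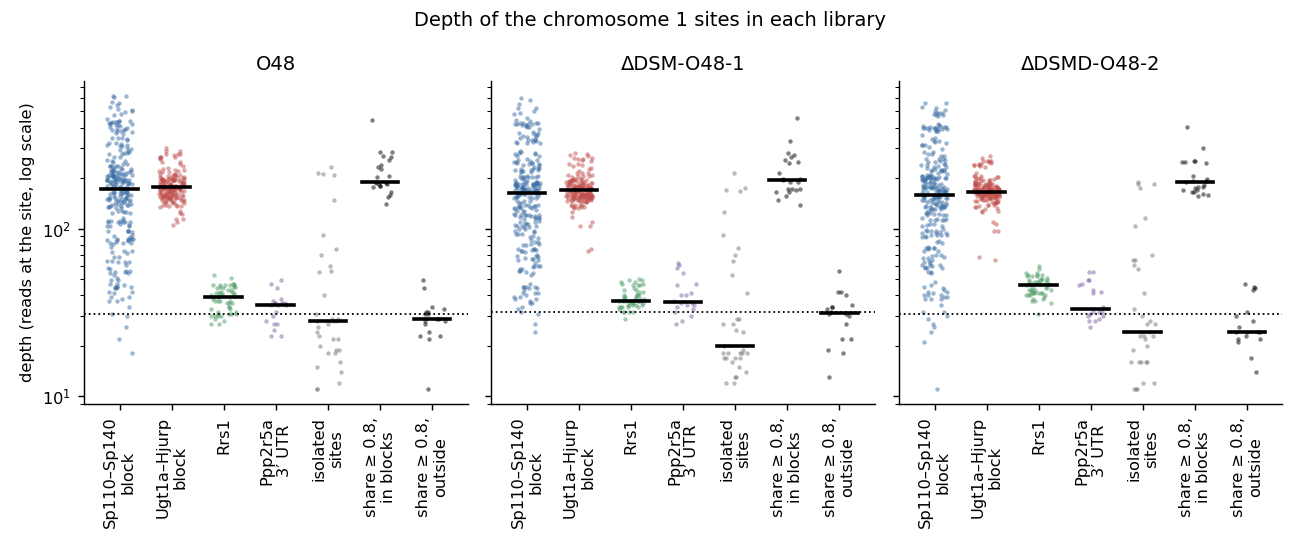
Depth of each chromosome 1 site (vertical axis, reads, log scale) in the 3 libraries, with a point per site, a bar at each group's median and a dotted line at the median of the 3759 fixed sites of the whole table (31, 32 and 31 reads). The Sp110–Sp140 and Ugt1a–Hjurp blocks and the 23 fixed sites inside them have medians between 159 and 194 reads, and *Rrs1*, the *Ppp2r5a* 3′ UTR, the isolated sites and the 18 fixed sites outside the blocks have medians between 20 and 46 reads.

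The high depth belonged to the 2 large blocks. In the Ugt1a–Hjurp block the median depths in O48, ΔDSM-O48-1 and ΔDSMD-O48-2 were 176, 169 and 166 reads. Its relative depth had a median of 5.42 and quartiles of 5.04 and 5.95, and 181 of 183 sites were at 3 times or more. The Sp110–Sp140 block had medians of 171, 163 and 159 reads and a relative depth of 5.29, but it was far more uneven, with quartiles of 3.05 and 7.41 and a range in O48 from 18 to 619 reads. The 5 sites that were deepest in their least covered library all lay in the 3′ UTR of *A530032D15Rik*, led by A85088496C with 608, 581 and 560 reads. *Rrs1* had a relative depth of 1.31 with medians of 39, 37 and 46 reads, and *Ppp2r5a* one of 1.09 with 35, 36.5 and 33 reads. The isolated sites were below the fixed sites at 0.734, and 23 of 35 had under 40 reads in all 3 libraries. Sites of chromosome 1 that were neither mixed nor fixed had the depth of their surroundings, with medians in O48 of 151 reads for 81 sites in the Sp110–Sp140 block, 172 for 27 in the Ugt1a–Hjurp block and 22 for 100 outside the blocks. On the other chromosomes, 2442 sites met the same rule, and their median depths were 57, 55.5 and 54 reads.

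The alternate allele was the minor one at most sites. The median alternate shares in O48, ΔDSM-O48-1 and ΔDSMD-O48-2 were 20.3%, 20% and 19.8%, 300 of 566 sites were below 25% in all 3 libraries, and 43 were above 50% in all 3. The authors' genotypes were heterozygous in all 3 libraries at 512 sites. At the other sites at least 1 library had the reference genotype, which was given 62 times in all. In the Ugt1a–Hjurp block 114 of 183 sites had a mean share from 10% to below 20%, with block medians of 18.5%, 17.9% and 17.9%. The Sp110–Sp140 block was similar in its medians of 17.5%, 17.5% and 17.8% but had a longer tail, with upper quartiles of 34.8%, 34.4% and 32.9%. *Rrs1* was nearer to equal numbers of both alleles, at 48.5%, 40.5% and 40.8%. *Ppp2r5a* was at 22.6%, 21.9% and 23.7%, and the isolated sites were at 26.7%, 31.2% and 31.2%.

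**Figure D2:**
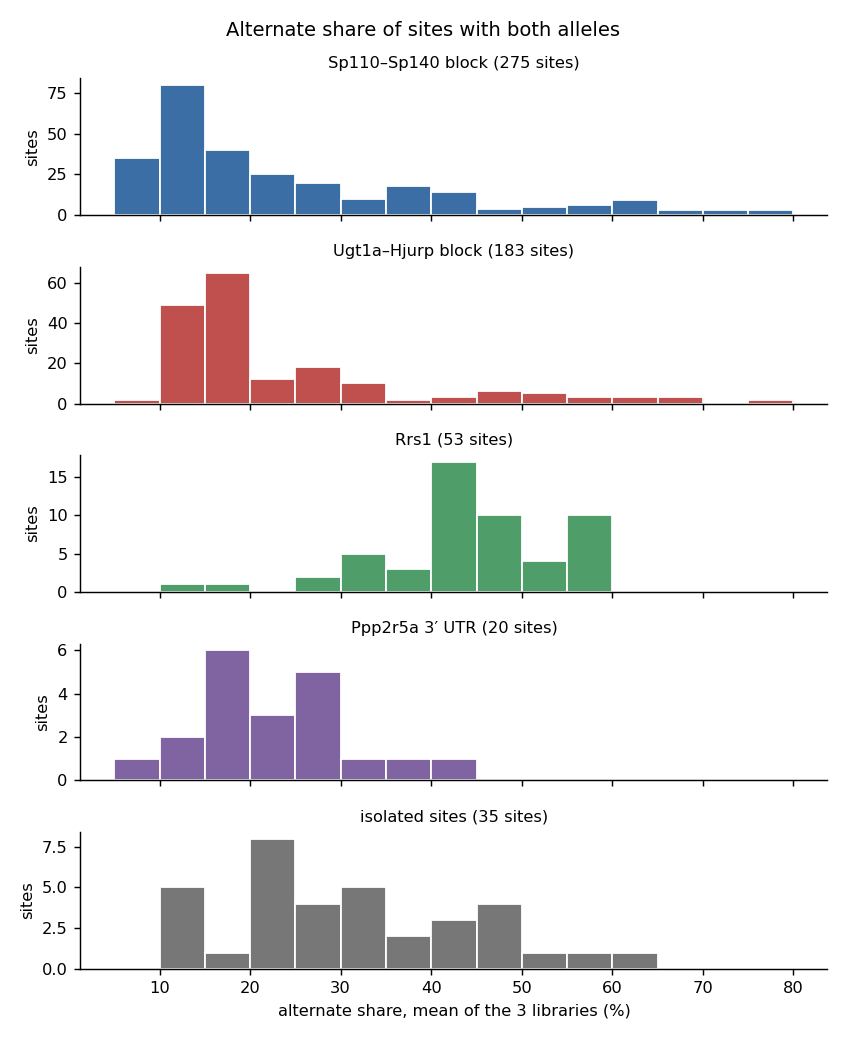
Number of mixed sites (vertical axes) by alternate share, as the mean of the 3 libraries in steps of 5 percentage points (horizontal axis), for each of the 5 groups. The 2 large blocks peak between 10% and 20%, with 120 of 275 and 114 of 183 sites there, and *Rrs1* peaks at 40% to 45% with 17 of 53 sites.

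Alternate and reference reads were also set against the depth of a fixed site. At the median site of the Ugt1a–Hjurp block, alternate reads were 0.967 times the median depth of whole-table fixed sites, and reference reads were 4.35 times. The alternate reads varied, with quartiles of 0.809 and 1.68 and 64 of 183 sites above 1.5 times. The median in O48 was 0.952 in *Hjurp*, 1.58 in the first exon of *Ugt1a1* and 1.48 in the *Ugt1a* shared exons. In the Sp110–Sp140 block alternate reads were 0.830 times, with quartiles of 0.495 and 2, and reference reads 3.95 times. The 18 fixed sites of the Ugt1a–Hjurp block mirrored this, with a median of 27 reference and 161 alternate reads in O48. At *Rrs1* both alleles were below 1, at 0.565 for the alternate and 0.691 for the reference, and at *Ppp2r5a* they were 0.240 and 0.850. Whether the extra depth comes from more copies in these cells was not tested.

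**Figure D3:**
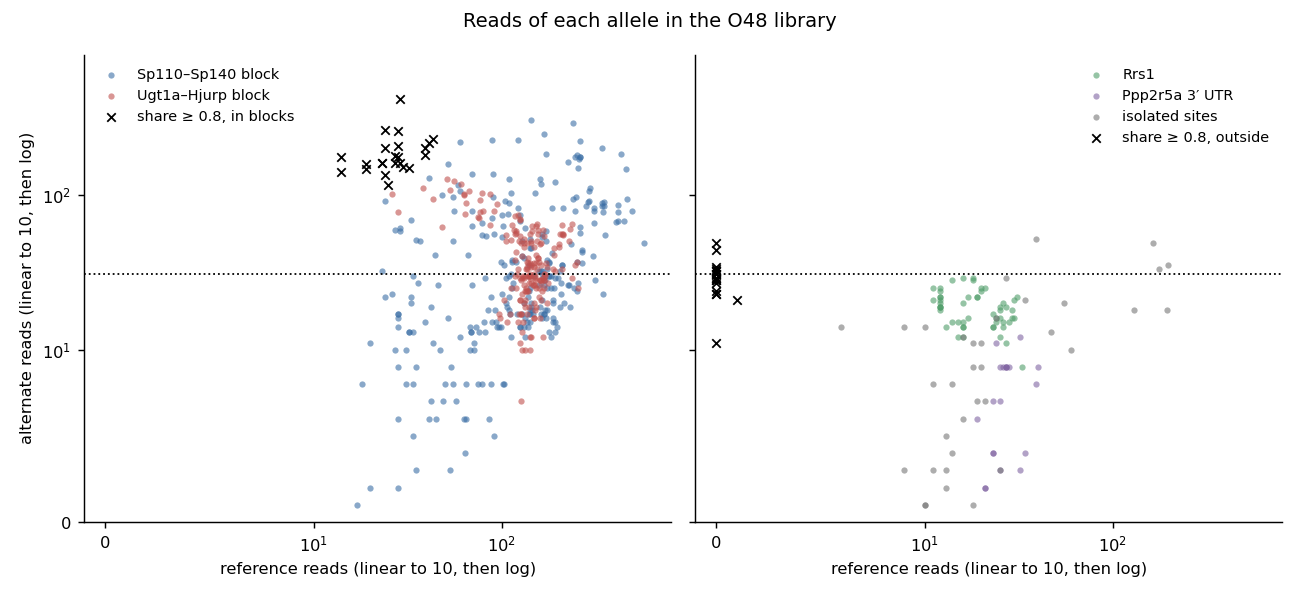
Reference reads (horizontal axis) against alternate reads (vertical axis) at each site in O48, on axes that are linear to 10 and logarithmic above, with the 2 large blocks on the left, the other groups on the right, fixed sites as crosses and a dotted line at 31 reads, the median depth of fixed sites of the whole table. The median Ugt1a–Hjurp site has 34 alternate and 139 reference reads, and the crosses inside the blocks have a median of 27 reference reads where those outside have 0.

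In each of the 4 blocks, the median difference in share was smaller between near neighbours than between all pairs of sites. Among 345 pairs of neighbouring mixed sites at most 50 bp apart, which can lie on the same reads, the mean shares differed by a median of 3.76 percentage points, against 13.3 for all pairs of mixed sites. In the Sp110–Sp140 block, which held 164 of these pairs, the difference was 8.40 points against 12.1 for all its pairs, and in the Ugt1a–Hjurp block it was 4.27 against 8.14. At *Rrs1* the median difference was 1.32 points among 50 such pairs and 94.0% of them were within 5 points, while all pairs of *Rrs1* sites differed by a median of 9.33 points. The share thus varied more along this gene than between near neighbours. For example, G9545691A and C9545700G were at 66.7% and 69.4% in O48, and the last site, A9546588T, was at 21.4%. *Ppp2r5a* was alike, with 12 of 14 near pairs within 5 points.

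The windows around the sites were searched for in the reference. In the stricter search, 31 bases with the alternate base in the middle were found unchanged at another place for 155 of 566 sites, which was 27.4% (23.7% to 31.3%), and for 6 of 41 fixed sites, which was 14.6% (5.57% to 29.2%). The unchanged window with the reference base occurred at another place for 224 mixed and 2 fixed sites. In a wider search chosen after seeing the data, windows of 100 bases on either side of the site were aligned with BLAST at 88% identity or more, and a copy was found for 353 mixed sites and a copy with the alternate base for 236, or 41.7% (37.6% to 45.9%). The wider search found no copy for the isolated sites of *Nrp2*, *Eif4e2* and *Tmco1*, which the stricter search counted. The *Nrp2* window with the alternate base occurred at 1.15e+06 places. The intervals cover the number of sites only, and sites of a block are not independent.

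**Figure D4:**
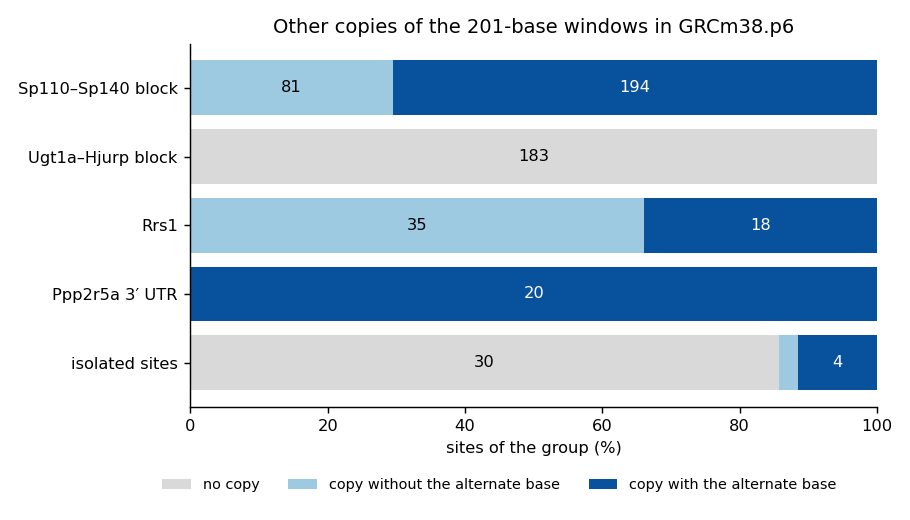
Share of the sites of each group (horizontal axis, %) with no other copy of the wider window in GRCm38.p6, with copies that lack the alternate base, or with a copy that has it, with the number of sites printed in each bar. All 183 Ugt1a–Hjurp sites have no copy, all 275 Sp110–Sp140 sites have one, and all 20 *Ppp2r5a* sites have a copy with the alternate base.

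The groups differed sharply in this search. In the Sp110–Sp140 block all 275 sites had a copy, with a median of 10 copies and a median identity of 99.5% for the best, and 194 had the alternate base in a copy. For 274 of them a copy lay on unlocalized contigs of chromosome 1, and for 268 elsewhere on chromosome 1 itself. The median share in O48 was 22.2% for the 194 sites whose alternate base was in a copy and 13.3% for the 81 others, with medians of 21.2% against 11.7% in ΔDSM-O48-1 and 22.1% against 12.4% in ΔDSMD-O48-2. In the Ugt1a–Hjurp block 0 of 183 sites had a copy, which allows a share of up to 1.64% taken as 3 sites of the total, or 2% as the exact upper limit, although the block was as deep. All 53 *Rrs1* sites had copies on chromosome 5 within the pseudogenes *Gm21168*, *Gm5067* and *Gm6089*, at a median identity of 94.1%, and 18 had the alternate base in at least 1 of them. The median shares of these 18 sites were 45.6%, 41.7% and 50% in O48, ΔDSM-O48-1 and ΔDSMD-O48-2. Those of the 35 others were 54.3%, 40.5% and 38.3%, so here the order differed between libraries. All 20 *Ppp2r5a* sites matched 4 places on chromosome 4, at a median identity of 96.0%, and an unplaced contig, at 97.3%, and the contig had the alternate base at all 20.

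Sites annotated as protein changes outnumbered silent ones. By the authors' annotation 270 mixed sites were nonsynonymous and 100 synonymous, which was 73.0% nonsynonymous (68.1% to 77.4%), against 15 of 24 or 62.5% (40.6% to 81.2%) at fixed sites of chromosome 1. RefSeq has coding sequence at 182 of the nonsynonymous and 61 of the synonymous mixed sites, or 74.9% nonsynonymous, and the other 127 lie outside RefSeq coding exons, 50 of them listed under id8260 in *Hjurp*. The whole-table values were 49.4% of 2119 fixed coding sites and, on the other chromosomes, 68.5% of 1545 mixed coding sites. The share was 79.0% in the Ugt1a–Hjurp block, 72.7% in the Sp110–Sp140 block and 64.2% at *Rrs1*. *Hjurp* taken with id8260 held 65 nonsynonymous and 18 synonymous sites, of which 46 and 14 were annotated from the entry id8260. The *Ugt1a* shared exons held 16 and 1, *Sp110* 24 and 8, *Sp140* 20 and 5, and *Rrs1*, which encodes a factor of ribosome assembly, 34 and 19. A further 140 sites lay in 3′ UTRs and 39 in 5′ UTRs, and 6 made a new start codon in a 5′ UTR. The median share in O48 was 19.8% at nonsynonymous and 25.7% at synonymous sites. Transitions were 58.5% of the mixed sites (54.3% to 62.6%), 58.5% of the fixed sites (42.1% to 73.7%), 53.5% of mixed sites on other chromosomes and 71.2% of the 3759 fixed sites of the whole table. These are descriptions with no test, since sites of 1 block are not independent.

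Stop codons and splice acceptors were changed at 11 sites, 8 of them in the Sp110–Sp140 block. The 5 stop-gains were W84* and R122* of id7390 in *Gm2619*, K245* of *Gm2427*, R54* of *A530032D15Rik* and R54* of *Sp140*. All 5 had between 7 and 12 copies in the reference, none of them with the alternate base, and the id7390 sites lie outside RefSeq coding sequence. W84* was the best covered, with shares of 9.36%, 8.2% and 11.9% at 267, 256 and 261 reads. R122* had 17.8%, 9.17% and 12.9%, and K245* had 40.0%, 29.3% and 45.5% at 55, 41 and 44 reads. R54* of *A530032D15Rik* had 35.5%, 31.1% and 39.0% at 31, 45 and 41 reads, and R54* of *Sp140* had 17.5%, 11.7% and 8.62%, with 10, 7 and 5 alternate reads. At all 5 the reference base was read more often than the alternate base in every library.

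The 4 splice acceptor sites were in *A530032D15Rik*, *Sp110*, the *Ugt1a* genes and *Gm5258*. C85091190T of *A530032D15Rik* was above 50% in all 3 libraries, at 51.9%, 58.6% and 52.8%, and 9 of its 10 copies had the alternate base. C85596110T of *Sp110* was at 17.5%, 21.2% and 19.4% with 378, 358 and 346 reads, and 3 of its 9 copies had the alternate base. G88218126C, at the acceptor of an exon that all *Ugt1a* transcripts share, was at 14.1%, 12.8% and 10.2% with 25, 25 and 20 alternate reads. The *Gm5258* site A86325297C rested on 3, 5 and 4 alternate reads and lay within 20 bp of a run of 11 C. The stop-losses were *420G of id7386, at 28.1%, 30.9% and 25.8%, and *70W of id8260, at 11.8%, 14.5% and 19.1%. That model overlaps *Hjurp*, whose own annotation in RefSeq has coding sequence there.

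The 5 highest mean shares were split between the large blocks. F101S of id7469 (A85614472G) was at 79.1%, 77.9% and 78.5%, and all 13 copies of its window had the alternate base. The 5′ UTR sites C85600893A of *Sp140*, at 75.7%, 78.3% and 77.7%, and A85598796G of *Sp110*, at 78.4%, 79.7% and 72.9%, each had the alternate base in 3 copies. In *Hjurp*, S19R (A88277413T) was at 79.5%, 75.5% and 75.5%, and the synonymous A88272730G at 74.5%, 75.2% and 77.9%. Both *Trpm8* sites were nearer to equal numbers, with A88307833G, which makes a start codon in the 5′ UTR, at 49.4%, 60.0% and 56.1%.

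Of the 35 isolated sites 22 lay in 3′ UTRs. Of all 35 isolated sites 11, or 31.4%, had a run of 6 or more of the alternate base within 20 bp in the reference. This was so for 8 of 531 sites in the blocks and 2 of 41 fixed sites. The 3 sites of *Nhlh1*, a neuronal transcription factor gene, lay within 10 bp of each other beside a run of 10 C, and the *Hdac4* site C91932757T lay in a stretch with a run of 20 T. A pair of sites a few bases apart in *Csrp1* lay near a run of 14 of the alternate base. Such pairs in *Kdm5b* and *Cadm3* lay near runs of 5 bases, which are under the limit of 6. The part of these runs in the calls was not tested. In contrast, 5 isolated sites had over 100 reads in all 3 libraries. These were the 4 sites of *4931408C20Rik*, where N9K (A26687400T) was at 23.1%, 16.5% and 26.5% of 212, 170 and 189 reads, and 1 site at the tRNA gene *n-TDgtc3*, at 12.2%, 14.4% and 15.5%. *Pfdn2*, a prefoldin subunit, held 4 sites without a copy in the reference, of which A171357963G was at 57.1%, 62.0% and 61.5% of 91, 92 and 104 reads. The 4 sites of *3110040M04Rik* each had 5 copies, on chromosomes 1 and 7, with the alternate base in at least 1.

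Between the libraries the shares moved little in the large blocks. The range over the 3 libraries had a median of 5.41 percentage points in the Sp110–Sp140 block and 5.39 in the Ugt1a–Hjurp block, 16.6 at *Rrs1*, 10 at *Ppp2r5a* and 14.6 at the isolated sites, where fewer reads were counted. At *Rrs1*, 14 consecutive sites between T25M and A59 (9545597 to 9545700) were 20 points or more higher in O48 than in both mutant lines, with shares of 51.7% to 69.4% in O48, 29.4% to 40.5% in ΔDSM-O48-1 and 20% to 40.8% in ΔDSMD-O48-2. The ranges of O48 and the mutant lines did not overlap there, but the sites share reads, were picked for this difference, and none passed the adjusted threshold (lowest adjusted p of Fisher's exact test 0.195 for ΔDSM-O48-1 and 0.0581 for ΔDSMD-O48-2 against O48).

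Each position of the table with 10 reads or more in all libraries was tested with a two-sided Fisher's exact test on its alternate and reference reads, with Benjamini-Hochberg adjustment over all 10711 positions. This compares single libraries and not lines, since no line was sequenced more than once. At an adjusted p under 0.05, 4% of all these positions were called for ΔDSM-O48-1 against O48, 4.31% for ΔDSMD-O48-2 against ΔDSM-O48-1 and 4.95% for ΔDSMD-O48-2 against O48. Of the 566 mixed sites 4, 3 and 5 were called in these comparisons, and 10 in at least 1. The sites were selected to hold both alleles in every library, which these tests compare, so nothing is read from these counts against the table. The lowest adjusted p was at G88264142T of id8260 in *Hjurp* (A878D, outside the coding sequence of RefSeq), whose share was 23.9% in ΔDSM-O48-1, against 6.74% in O48 and 9.09% in ΔDSMD-O48-2 (Fisher's exact test, adjusted p = 0.000863 for ΔDSM-O48-1 against O48 and 0.0173 for ΔDSMD-O48-2 against ΔDSM-O48-1). The synonymous *Hjurp* site C88270274T was at 73.3%, 53.4% and 44.6% (Fisher's exact test, adjusted p = 0.0103 for ΔDSMD-O48-2 against O48). In the same comparison 4 sites of the Sp110–Sp140 block were called. The *A530032D15Rik* site T85109531C, which makes a start codon in the 5′ UTR, was at 47.6%, 71.1% and 73.2% (Fisher's exact test, adjusted p = 0.0104, and 0.0455 for ΔDSM-O48-1 against O48). Its 3′ UTR site A85088496C was at 24%, 18.6% and 15.5% (Fisher's exact test, adjusted p = 0.0108), and N5D of *C130026I21Rik* (T85270052C) was at 51.4%, 49.2% and 37.9% (Fisher's exact test, adjusted p = 0.0171). R261G of *Sp110* (T85586254C) was at 42.3%, 60.9% and 59.5% (Fisher's exact test, adjusted p = 0.0426). The remaining calls, T85598634C and Q56L of *Sp110*, Y5N of *Sp140* and A614T of id8260, had adjusted p-values of Fisher's exact test between 0.0375 and 0.0476. Passage number rises with the mutations in these lines, so passage and genotype cannot be told apart.

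**Figure D5:**
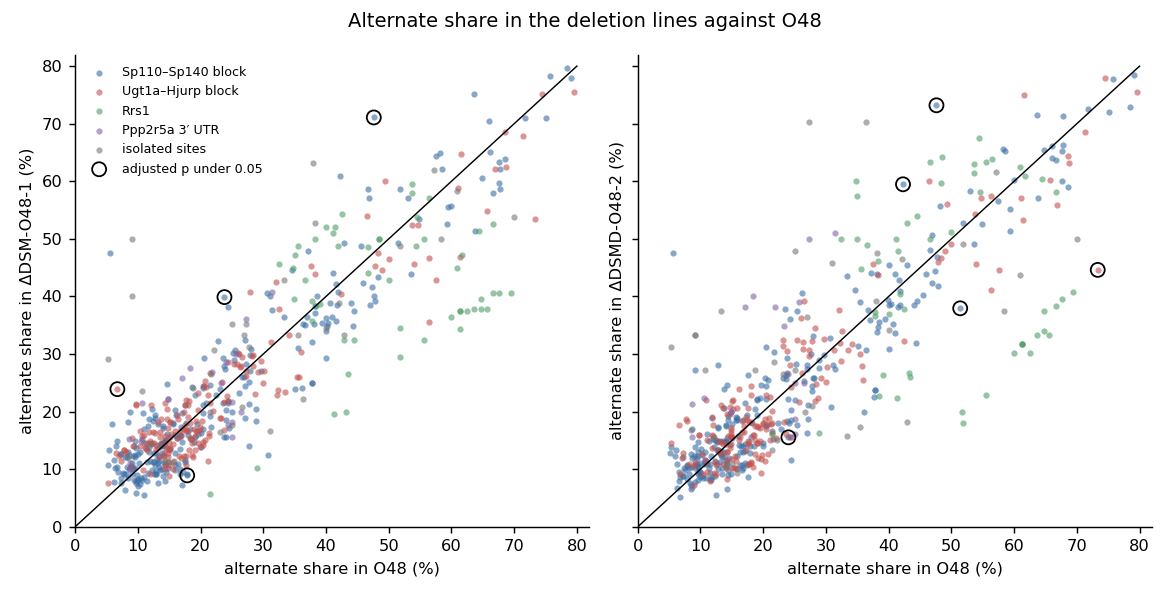
Alternate share (%) of each mixed site in ΔDSM-O48-1 (left) and ΔDSMD-O48-2 (right) against O48, coloured by group, with a line of equal shares and circles at sites with an adjusted p under 0.05 in that comparison (4 on the left, 5 on the right). The 14 consecutive *Rrs1* sites between T25M and A59, at 51.7% to 69.4% in O48, lie below the line in both panels.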

How the data were processed

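The submitters' processing notes name CASAVA 1.8.2, BWA 0.7.12, SAMtools, Picard and GATK and the build mm10, with no role given for each. For every site and library the authors deposited 3 read counts, the depth and the reads carrying each base, which are not normalized. The deposited quality scores and the authors' allele fraction, a share among genotypes, were not used for any result. Shares were computed from the read counts, and the depth can exceed reference plus alternate reads. The table has 14685 entries. Entries were reduced to 1 per position, keeping the effect of highest impact, and positions with an entry under a left-out gene were dropped. All reference bases at the 1038 chromosome 1 positions were those of GRCm38.p6, so positions, genes and sequences are of that build and its RefSeq annotation. Entries named id followed by a number were located by the RefSeq gene at their position.

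Windows of 31 bases were searched for on both strands of the primary assembly, and windows of 100 bases on either side of each site with BLAST 2.17.0 (megablast, word size 24, identity of at least 88%, 60% of the window covered), leaving out the site itself. Intervals are 95% Clopper-Pearson (exact) and cover counting error only, since reads of 1 amplified library are not independent molecules. At a depth of 31 reads a share is known only roughly, and 95 of 566 sites had under 10 alternate reads in at least 1 library, 12 of them under 3. The median depth of fixed sites was 31 to 32 reads per library over the whole table. Fisher's exact tests were two-sided. Named genes were those with 5 or more sites, those with a stop or splice-site change, the 5 deepest sites, the 5 with the highest mean share and the 5 with the lowest adjusted p. Other sites named were chosen after their values were seen. The sites, gene lists and alternatives were chosen with earlier results of these data known. Depth minimums, share limits, genotypes, linking distances and window lengths were varied. The rule for the sites, Fisher's exact test and the 2 searches for copies were tested on simulated data first, and the other steps were not. The tests used scipy 1.17.1 and statsmodels 0.14.6 under Python 3.11.15, the tables pandas 2.3.3 and numpy 2.4.6, the window search numba 0.67.0 and the plots matplotlib 3.10.9.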

Additional observations from a re-analysis of the deposited data

How the results depend on the processing

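The ratio of mixed to fixed depth, which was 1.01, 0.994 and 0.972 in O48, ΔDSM-O48-1 and ΔDSMD-O48-2, depended most on which fixed sites it was set against. It was 5.52, 4.95 and 6.52 against fixed sites outside the blocks, 5.16, 4.88 and 5.05 against those of the whole table, and 0.847, 0.804 and 0.828 against those inside the blocks. With an upper share limit of 0.9 it was 5.62, 4.97 and 6.60, and with heterozygous genotypes required it was 5.71, 5.11 and 6.67, where fixed sites inside the blocks leave the fixed side by construction. At the limit of 0.9 not all of them become mixed. L184P of *Sp110* stays fixed, and sites at 0.9 or more in only some libraries become neither. With 1 value per gene the ratio was 2.56, 2.15 and 2.03, with means 1.20, 1.13 and 1.19, and with a share of at least 0.2 it was 0.934, 0.873 and 0.879. At a depth of 20 or more it was 0.959 in O48 and 0.958 in ΔDSM-O48-1, and with the rule applied in O48 alone 0.928 in ΔDSM-O48-1. A share of at least 0.2 left 234 sites, with median shares of 40.2%, 38.8% and 39.0% by construction. Heterozygous genotypes gave 24.1%, 23.3% and 24%, and the rule in O48 alone gave 18.2% in ΔDSM-O48-1. Sites in clusters were 95.2% at a depth of 20 or more, 87.8% with O48 alone, 81.6% linked within 1 kb and 94.7% within 100 kb. The share of sites with the alternate base in another copy, 27.4% as reported, was 36.8% at a share of at least 0.2, 33.0% with 21 bases, 21.6% with 51 bases, 41.7% with BLAST, 7.22% without the Sp110–Sp140 block and 40.5% without the Ugt1a–Hjurp block. Adjusting over chromosome 1 alone called 79, 70 and 88 of its positions. These are counts over all tested positions of the chromosome, mixed or not, and not over the 566 mixed sites. Of its 1038 positions 1008 had 10 reads or more in all libraries. The remaining causes were not tested. Alternatives on the blocks, on BLAST and on positions that *Hjurp* shares with *Heatr7b1* were chosen after seeing the data. No paired analysis was possible because each line had 1 library. With 1 library per line, a difference between libraries has no replicate check, and at the median depth of *Rrs1*, *Ppp2r5a* and the isolated sites, 20 to 46 reads, differences of several percentage points were not detectable.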
